A study of Mus musculus with 6 samples.

Results

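Chromatin accessibility was examined at 10 genes of the transforming growth factor beta (TGF-β) pathway: the ligand Tgfb1, the receptors Tgfbr1, Tgfbr2 and Tgfbr3, the SMAD proteins Smad3, Smad6 and Smad7, and the pathway regulators Ski, Skil and Smurf2. A region was assigned to a gene when it overlapped the gene body or the 50 kb on either side of it. By this rule 17 of the 10016 regions in the deposited table of changed regions lay at these genes, and 8 of the 10 genes had at least 1. The measurement was ATAC-seq, an assay that cuts and tags open DNA with the transposase Tn5, and the reads over a region report how accessible it is.

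The cells were mouse fetal liver cells transformed with a retrovirus carrying the MLL-ENL fusion oncogene and grown in interleukin 3 at 10 ng/ml. WT cells were wild-type for Cebpa and Cebpb, the genes of the myeloid transcription factors C/EBPα and C/EBPβ, and their labels name no vector. In the study such cells carried floxed alleles of both genes. The dKO cells lacked both genes and expressed exogenous GFP; they were clones, which the study obtained by treating transformed cells with Cre, and clone, vector and genotype cannot be told apart. Each group had 2 libraries, and the remaining group, dKO cells with the rat C/EBPβ isoform LAP*, was not analysed here.

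TGF-β ligands bring a type I and a type II receptor together at the cell surface. The type I receptor phosphorylates receptor SMADs, which enter the nucleus with a common partner SMAD and bind DNA beside other transcription factors. Inhibitory SMADs, the ubiquitin ligases of the SMURF family and the corepressors SKI and SKIL (SnoN) limit the signal at successive steps. In blood-forming cells the pathway is best known as a brake on the proliferation of stem and progenitor cells.

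The table held, for each region, the log2 mean of normalised reads over the 2 libraries of each group (the level), and the change is given here as the dKO level minus the WT level. It held no value per library, so that no standard deviation and no test could be computed for a region. Each change is therefore given with a counting standard error (SE), which was derived from the size of 1 read in the table and covers counting error only. Regions were listed when they passed a corrected P-value of 0.05 in the authors' comparison, so that a gene without a region is one without a listed change, not one shown to be equal in both groups. In a bulk measurement, a level cannot separate how many cells have a region open from how open it is in each cell.

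The 17 regions comprised 11 with higher and 6 with lower accessibility in dKO. Accessibility was higher at Tgfb1, Tgfbr1, Smad3, Skil and Smurf2, and lower at Tgfbr3, Smad6 and Ski. No gene had regions of both directions on the deposited scale, although subtracting the median change of all listed regions, 0.98, turned 4 of the higher regions (Tgfb1 region 2, Tgfbr1 regions 1 and 3, and Smurf2) to values between -0.20 and -0.01. No region was listed at Tgfbr2 or Smad7. The largest changes were an increase of 3.06 in an intron of Smad3 and a change of -3.05 in an intron of Tgfbr3.

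The central 200 bases of 5 regions are shown to give the sequence behind the largest change at Tgfb1, Tgfbr3, Smad3 and Ski, and behind the 1 region that lay over a promoter of its own gene. Regions are numbered along the chromosome within each gene. Sequences are the plus strand of GRCm38.p6 (mm10). Capitals mark matches to short strings that transcription factors are known to recognise: TTGCNNAA for C/EBP in Tgfbr3 region 1, the SMAD box CAGAC or its reverse complement in Tgfb1 region 1 and Smad3 region 2, and the GC-rich SMAD strings GGCGC or GGCCG, on either strand, in Tgfbr3 region 3 and Ski region 1.
Tgfb1 region 1 (chr7:25644936-25645135): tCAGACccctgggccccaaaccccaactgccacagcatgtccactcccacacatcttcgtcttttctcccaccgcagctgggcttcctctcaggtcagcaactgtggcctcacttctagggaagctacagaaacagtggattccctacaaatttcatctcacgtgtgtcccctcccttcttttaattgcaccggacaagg
Tgfbr3 region 1 (chr5:107201054-107201253): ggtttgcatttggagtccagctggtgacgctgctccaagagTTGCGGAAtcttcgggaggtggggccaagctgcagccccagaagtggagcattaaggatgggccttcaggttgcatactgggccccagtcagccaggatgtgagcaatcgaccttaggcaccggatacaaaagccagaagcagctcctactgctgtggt
Tgfbr3 region 3 (chr5:107289347-107289546): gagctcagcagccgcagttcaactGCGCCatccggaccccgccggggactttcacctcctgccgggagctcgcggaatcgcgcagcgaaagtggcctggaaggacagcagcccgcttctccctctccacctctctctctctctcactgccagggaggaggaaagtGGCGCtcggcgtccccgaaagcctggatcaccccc
Smad3 region 2 (chr9:63731521-63731720): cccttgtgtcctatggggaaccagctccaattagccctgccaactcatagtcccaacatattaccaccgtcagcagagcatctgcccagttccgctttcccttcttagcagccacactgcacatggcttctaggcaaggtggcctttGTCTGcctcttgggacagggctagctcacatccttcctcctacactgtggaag
Ski region 1 (chr4:155116397-155116596): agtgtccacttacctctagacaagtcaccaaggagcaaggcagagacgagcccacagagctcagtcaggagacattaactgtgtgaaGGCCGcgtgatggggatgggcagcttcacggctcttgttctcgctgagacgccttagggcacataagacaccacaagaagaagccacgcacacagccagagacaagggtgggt

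A selection of further matches to the C/EBP and AP-1 strings within the central 200 bases is shown with 15 bases on either side. The AP-1 string reads TGAGTCA on one strand and TGACTCA on the other, and C/EBP was searched as TTGCNNAA and TTACNNAA on both strands.
Tgfbr1 region 1, AP-1 (chr4:47303554-47303590): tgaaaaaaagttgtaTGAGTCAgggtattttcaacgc
Tgfbr1 region 1, AP-1 (chr4:47303590-47303626): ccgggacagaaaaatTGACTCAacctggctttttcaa
Tgfbr1 region 5, AP-1 (chr4:47347224-47347260): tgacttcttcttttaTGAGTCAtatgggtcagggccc
Tgfbr1 region 5, C/EBP (chr4:47347277-47347314): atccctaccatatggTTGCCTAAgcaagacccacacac
Tgfbr3 region 2, C/EBP (chr5:107219411-107219448): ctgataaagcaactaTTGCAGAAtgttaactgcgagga
Smad6, AP-1 (chr9:63942054-63942090): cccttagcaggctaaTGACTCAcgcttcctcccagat
Skil, AP-1 (chr3:31060880-31060916): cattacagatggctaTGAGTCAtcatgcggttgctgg

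**Figure D1:**
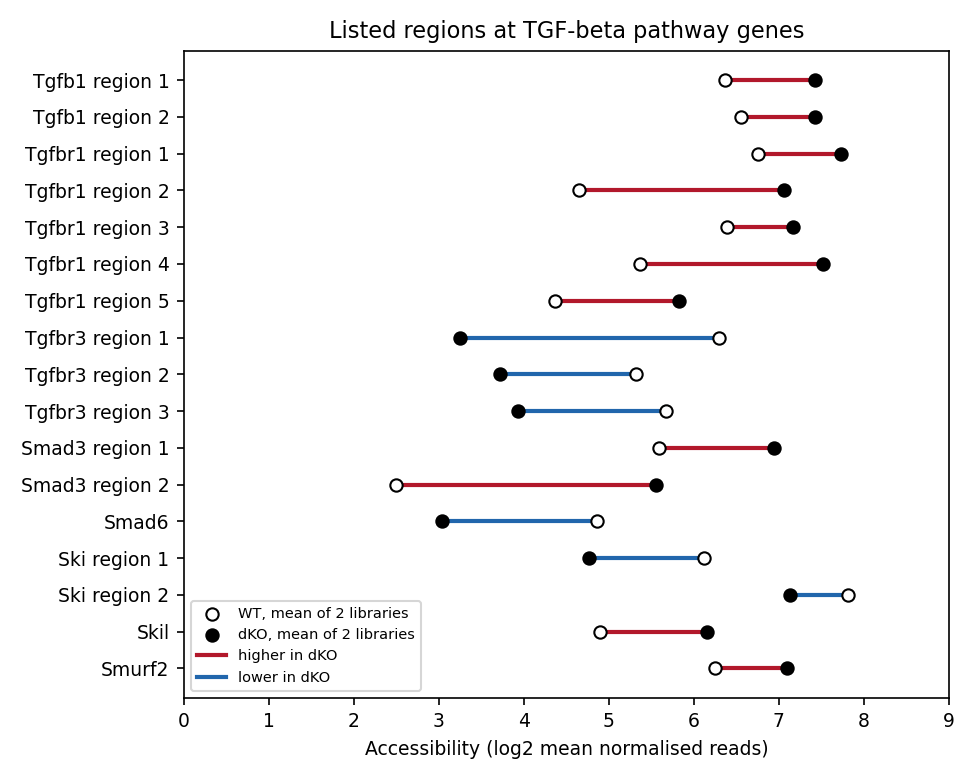
Level of each listed region in WT (open circles) and dKO (filled circles), as the log2 mean of normalised reads over 2 libraries, with regions numbered along the chromosome within a gene. The 11 red lines run to higher and the 6 blue lines to lower levels in dKO, and every gene has lines of 1 colour on this scale; 4 of the red lines turn when the median change of all regions is subtracted.

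The ligand gene Tgfb1 (ENSMUSG00000002603.15, chr7:25687002-25705077, plus strand) encodes TGF-β1, the form of the ligand that is most abundant in blood cells. Region 1 (chr7:25644713-25645358) had a level of 6.37 in WT and 7.42 in dKO, a change of 1.05 (counting SE 0.13) or 2.07-fold. It lay 41644 bp upstream of the gene in an intron of Bckdha, whose own start site was nearer, at 12970 bp. Region 2 (chr7:25705684-25706124) went from 6.55 to 7.42, a change of 0.87 (counting SE 0.12), and began 607 bp past the end of Tgfb1. Both regions were thus open in both groups and less than 2.1-fold apart. The window of Tgfb1 held 6 other protein-coding genes, the most of any member.

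Tgfbr1 (ENSMUSG00000007613.15, chr4:47353222-47414931, plus strand), the type I receptor that carries the signalling kinase, had the most regions. All 5 lay upstream of the gene within 44.3 kb of one another, and all were higher in dKO. The strongest difference was at region 2 (chr4:47310800-47311237), with a level of 4.65 in WT and 7.06 in dKO, a change of 2.41 (counting SE 0.21) or 5.31-fold. Region 4 (chr4:47319554-47320216) followed with 5.37 in WT and 7.52 in dKO, a change of 2.15 (counting SE 0.17) or 4.44-fold. These regions had lower WT levels than their neighbours, region 1 at 6.76 and region 3 at 6.39, and reached similar dKO levels.

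Region 1 (chr4:47303161-47303931) covered the start of an internal transcript of Col15a1, the collagen gene upstream of Tgfbr1, and changed by 0.97 (counting SE 0.11) to a dKO level of 7.73. Region 3 (chr4:47315429-47315927) changed by 0.78 (counting SE 0.13) to a dKO level of 7.17. Region 2 overlapped an exon of Col15a1, and regions 3 and 4 lay past the end of Col15a1, nearer to that internal start than to the start of Tgfbr1. Only region 5 (chr4:47347075-47347412) was nearest to the start of Tgfbr1, at 5810 bp. Its level was 4.37 in WT and 5.82 in dKO, a change of 1.45 (counting SE 0.25) or 2.73-fold. It was also the 1 member region that held both an AP-1 and a C/EBP string. Which of the neighbouring genes, if either, these regions act on was not tested.

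Tgfbr2 (ENSMUSG00000032440.13, chr9:116084293-116175360, minus strand), the type II receptor that binds the ligand first, had no listed region in its window. The nearest listed region lay 193.7 kb from the gene and had a level of 3.27 in WT and 5.40 in dKO. From its RNA data, the study reported lower Tgfbr2 expression in dKO cells.

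Tgfbr3 (ENSMUSG00000029287.14, chr5:107106570-107289629, minus strand) encodes betaglycan, a co-receptor that presents the ligand and has no kinase. Its 3 regions all overlapped the gene and were all lower in dKO, 2 in introns and 1 across the gene start. Region 3 (chr5:107289200-107289693) covered a Tgfbr3 start site and its exon and had a level of 5.67 in WT and 3.93 in dKO, a change of -1.74 (counting SE 0.28), which is 3.34-fold lower. With a GC content of 70.2% it was the most GC-rich of the 17 regions, which had a median of 52.2%. Region 1 (chr5:107200931-107201376) lay in an intron, 8564 bp from a further Tgfbr3 start site. Its level was 6.30 in WT and 3.25 in dKO, a change of -3.05 (counting SE 0.33), which is 8.28-fold lower. Region 2 (chr5:107219348-107219662), also intronic, went from 5.32 to 3.72, a change of -1.60 (counting SE 0.31). All 3 regions had WT levels above 5 and dKO levels below 4, and both intronic regions held a C/EBP string.

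Smad3 (ENSMUSG00000032402.12, chr9:63646767-63757994, minus strand) encodes the receptor SMAD that carries TGF-β signals to DNA. Both of its regions were intronic and higher in dKO, also after that centring. Region 2 (chr9:63731447-63731793) had a level of 2.49 in WT, the lowest WT level among the members and equal to 5.62 normalised reads, and 5.55 in dKO. The change of 3.06 (counting SE 0.43) is 8.34-fold, and 8.90% of all regions higher in dKO had a change at least as large. Region 1 (chr9:63721496-63721992) went from 5.59 to 6.94, a change of 1.35 (counting SE 0.16) or 2.55-fold.

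The gene bodies of Smad3 and Smad6 lie 195 kb apart on chromosome 9, and their regions went in opposite directions. Smad6 (ENSMUSG00000036867.7, chr9:63953076-64022059, minus strand) encodes an inhibitory SMAD that acts mainly on signals of bone morphogenetic proteins (BMPs). Its region (chr9:63941879-63942220) lay between the genes, 10856 bp past the end of Smad6, and the nearest start site was that of the noncoding gene Gm36033. The level was 4.86 in WT and 3.03 in dKO, the lowest dKO level among the members, with a change of -1.83 (counting SE 0.38), which is 3.56-fold lower.

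Smad7 (ENSMUSG00000025880.11, chr18:75367529-75395935, plus strand), the inhibitory SMAD that targets the TGF-β type I receptor, had no listed region in its window. A region 52.2 kb from the gene, just outside the window, had a level of 7.24 in WT and 5.97 in dKO, a change of -1.27. It was therefore not counted as a member region under the 50 kb rule. It did lie within the 100 kb window tried as an alternative, and it is part of the whole table.

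Ski (ENSMUSG00000029050.15, chr4:155154075-155222592, minus strand) encodes a corepressor that binds SMADs and holds their target genes silent. Both of its regions were lower in dKO. Region 1 (chr4:155116158-155116834) lay 37241 bp past the gene's end, in an intron of Morn1, with a level of 6.12 in WT and 4.76 in dKO and a change of -1.36 (counting SE 0.22). Region 2 (chr4:155234920-155235825), 12328 bp upstream of Ski, had the highest WT level among the members, 7.81, and 7.13 in dKO. Its change of -0.68 (counting SE 0.10), or 1.60-fold lower, was the smallest of the 17 in size. Of all regions lower in dKO, 98.9% had a change at least as large.

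Skil (ENSMUSG00000027660.16, chr3:31095058-31122577, plus strand) encodes SnoN, a corepressor related to SKI. Its region (chr3:31060789-31061041) was higher in dKO, from 4.90 to 6.16, a change of 1.26 (counting SE 0.21) or 2.39-fold. It lay 34.0 kb upstream of Skil, with an internal start site of Prkci nearer, at 22274 bp. The related corepressor genes Ski and Skil thus had listed regions of opposite direction; that difference was not tested.

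Smurf2 (ENSMUSG00000018363.16, chr11:106820066-106920715, minus strand) encodes a ubiquitin ligase that marks TGF-β receptors and SMADs for degradation. Its region (chr11:106819443-106820011) had a level of 6.25 in WT and 7.10 in dKO, a change of 0.85 (counting SE 0.14) or 1.80-fold. In the direction of transcription it began 55 bp past the 3′ end of Smurf2. It overlapped an exon of Cep95 and lay 1564 bp from an internal start site of that gene.

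**Figure D2:**
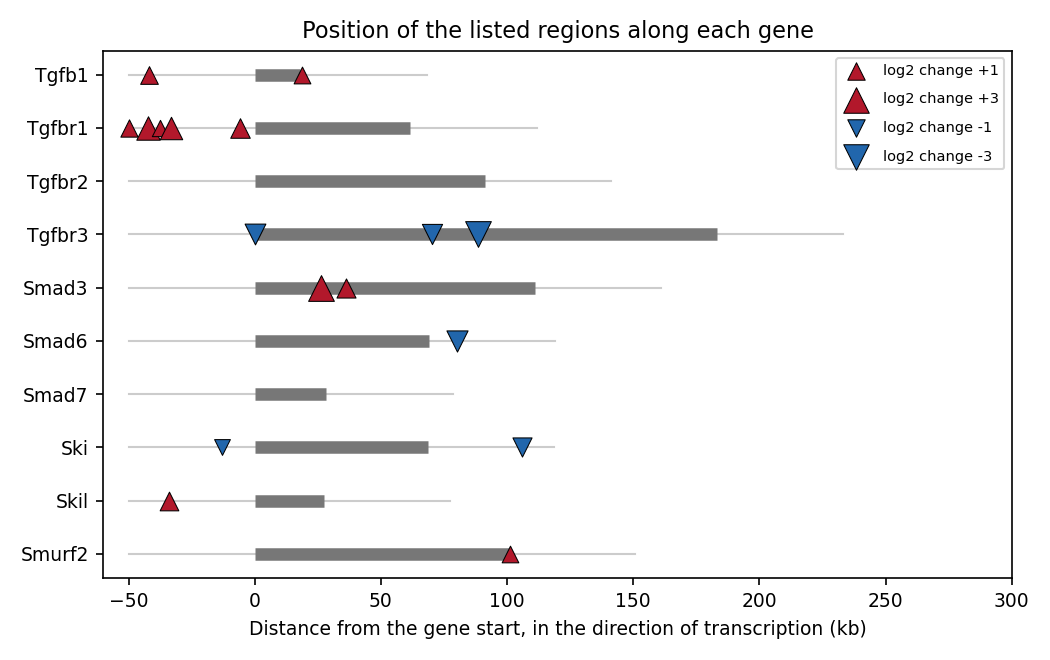
Listed regions (triangles) along each gene, plotted by the distance of their centre from the gene start in kb in the direction of transcription. Grey bars are gene bodies and thin lines the 50 kb on either side; red upward triangles are higher and blue downward triangles lower in dKO, sized by the change. All 5 Tgfbr1 regions lie upstream of the gene, whereas the 3 Tgfbr3 and 2 Smad3 regions overlap theirs.

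Most of the regions lay outside the genes they were assigned to. Gene bodies overlapped 5 regions, at Tgfbr3 and Smad3, of which 4 lay wholly inside, and 12 lay outside, so that 29.4% of the regions touched the 43.2% of the windows that gene bodies make up. For 8 regions the nearest protein-coding start site was the member's own, and for 9 it was that of another gene, with the starts of internal transcripts counted as start sites. The assignment of a region to a member therefore states its position and not its target.

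The member regions were next set beside the whole table. Higher regions made up 64.7% of the 17, close to the 60.3% of all listed regions that were higher in dKO. A change of at least 2-fold was seen in 12 of the 17, or 70.6%, below the 85.5% of all listed regions. The median change of the higher member regions was 1.26, beside 1.58 over all higher regions, and that of the lower ones was -1.67, beside -1.85. Over both directions the median was 0.87 for the members and 0.98 for the table. In terms of level, the members had medians of 5.67 in WT and 6.94 in dKO, against 5.31 and 5.59 for all regions. None of these differences was tested.

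The share of genes with a listed region was 80.0% among the 10 members. Among all 21755 protein-coding genes it was 47.5% in windows of the same rule, and 55.6% among those whose body was at least as long as that of the shortest member. That cut sets a minimum only and does not match the members in length. In number, the members' windows held 9.66 regions per Mb, beside a mean of 6.26 over the windows of protein-coding genes. All 5 members with at least 2 regions had them in 1 direction. Among protein-coding genes with at least 2 regions this was so for 64.1%, and for 69.3%, 57.9% and 58.6% of those with 2, 3 and 5 regions. A shared direction within a gene was thus common over the genome, and the members were not tested against it.

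**Figure D3:**
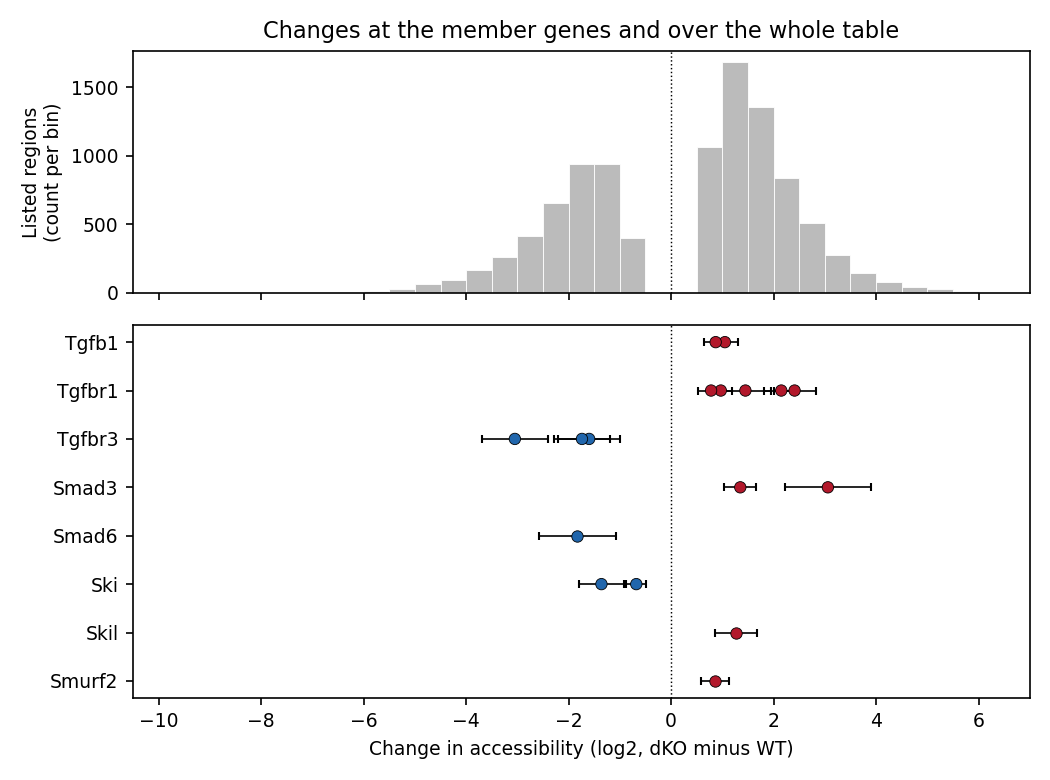
Top, number of all 10016 listed regions by change in accessibility (log2, dKO minus WT) in bins of 0.5. Bottom, change of each member region by gene, with horizontal bars for 95% counting intervals; red points are higher and blue points lower in dKO. The member changes lie between -3.05 and 3.06, within the bulk of the table. No bar reaches 0, but the regions were listed for passing a cutoff in the same libraries, so this is no separate support.

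Counting error was small against the changes, but the regions were listed because they passed the authors' cutoff in these same libraries. Changes well above their counting SE therefore follow largely from that selection and are not separate support. The counting SE ranged from 0.10 to 0.43, no member region was at or under the floor of 3 reads per library in either group, and the lowest ratio of a change to its counting SE was 4.82, at Smad6. Variation between libraries and between clones is not part of this error and could not be assessed.

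The strings recognised by C/EBP, AP-1, PU.1, RUNX and SMAD proteins were counted in the central 200 bases, since C/EBPα and C/EBPβ were the factors deleted. A C/EBP string was present in 2 of the 6 lower regions, both in Tgfbr3, and in 1 of the 11 higher regions, Tgfbr1 region 5. Over all listed regions, 40.8% of those lower and 20.1% of those higher in dKO held one. The promoter region of Tgfbr3 and the regions at Smad6 and Ski were thus lower in dKO without a C/EBP string in this window. Over whole regions, a C/EBP string was in 3 of the 6 lower regions, beside 54.3% of all lower ones, and in 2 of the 11 higher regions, beside 35.3%. An AP-1 string was present in 4 of the 11 higher regions, 3 of them at Tgfbr1 and 1 at Skil, and in 1 of the 6 lower regions, at Smad6. The shares over all listed regions were 26.7% of the higher and 4.67% of the lower ones.

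A PU.1 string (GAGGAAGT) was found in 2 of the higher regions, both at Tgfbr1 (regions 1 and 4), and in none of the lower ones, beside 13.1% and 3.34% of all regions. The RUNX string AACCACA occurred in Tgfbr3 region 2 only, beside 11.9% of all regions. The SMAD box CAGAC occurred in 6 of the 17 regions, or 35.3%, beside 40.7% of all regions, and was present 3 times each in Tgfbr1 region 3 and Smurf2. The palindrome GTCTAGAC was in none of the 17 and in 0.17% of all regions. The GC-rich strings GGCGC and GGCCG were in 4 of the 17, beside 22.4% of all regions. For each of these strings in the central 200 bases, the share over the table lay inside the 95% Wilson interval of the members' share, which is wide with 6 and 11 regions and treats regions as independent. Over whole regions, whose median width was 494 bp for the members and 400 bp for the table, this did not hold for the GC-rich SMAD strings and for RUNX. The GC-rich strings were then in 10 of the 17 (58.8%, interval 36.0% to 78.4%) beside 34.2% of all regions, and in 5 of the 6 lower ones (83.3%, interval 43.6% to 97.0%) beside 38.5%. The RUNX string was in 3 of the 6 lower regions (interval 18.8% to 81.2%) beside 14.7%. A match is a description of the sequence and not a binding site.

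To place the members in the wider pathway, 61 further genes linked to TGF-β, activin and BMP signalling were examined with the same windows. They include transcriptional targets and ubiquitin enzymes that also serve other pathways. Of these, 42 had a listed region (68.9%): 18 with higher regions only, 15 with lower only and 9 with both. Beside this stand 47.5% of all protein-coding genes and 55.6% of those at least as long as the shortest member. The latter share is not matched in length to the 61 genes, which include shorter ones such as Id1. The 42 genes held 70 regions, of which 40, or 57.1%, were higher in dKO, near the 60.3% of the table, and the median change was 0.74.

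By class, ligands and latency proteins had 7 higher and 8 lower regions at 9 of 16 genes, and the other receptors 12 higher and 6 lower at 9 of 11 genes. SMADs and their partners had 4 higher and 7 lower regions at 7 of 10 genes, and ubiquitin enzymes and inhibitors 5 higher and 7 lower at 8 of 11 genes. The transcriptional targets of the pathway had 12 higher and 2 lower regions at 9 of 13 genes. The lower regions among the targets were at Tgfbi, which also had a higher one, and at Tsc22d1. After 0.98 was subtracted, 9 of the 14 regions at targets and 8 of the 18 at receptors were still higher. No class was tested against the others, and regions of a gene are not independent.

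Regions over the gene's own promoter, within 1 kb of a start site, were listed at 7 of the further genes, 5 lower and 2 higher in dKO. Over all protein-coding genes, 6.47% had such a region, and of the listed regions within 1 kb of a protein-coding start site 44.3% were lower. The promoter of Smad1, a receptor SMAD for BMP signals, had a level of 7.09 in WT and 3.03 in dKO, a change of -4.06 (counting SE 0.35). The promoter regions of Tgif2, a SMAD corepressor, and Acvr1c, a type I receptor, changed by -1.96 and -1.83. Those of Zfyve9, which anchors receptor SMADs at the membrane, and Smurf1, the ligase related to Smurf2, changed by -1.61 and -0.84. Higher promoter regions were those of the type II receptors Acvr2a, at 0.80, and Bmpr2, at 0.65, both under the median of 0.98 over all listed regions.

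The 5 largest changes towards higher accessibility were at Nedd4l, Cdkn1a, Tgfbi, Eng and Bmpr1a. At Cdkn1a, which encodes the cell cycle inhibitor p21, a region 19994 bp from the gene, in the noncoding gene Trp53cor1, went from 1.96 to 5.83 (counting SE 0.51). At Tgfbi, a secreted protein named for its induction by TGF-β, a region went from 1.54 to 5.32 (counting SE 0.59). Its WT level was just above the floor level of 1.43. The WT level was at or under the floor of 3 reads per library in the region at Nedd4l, a ubiquitin ligase, and at Eng, the co-receptor endoglin, so that accessibility in dKO was at least 18.1-fold and at least 9.88-fold higher. The region at Eng lay 38113 bp from that gene and over a start site of Sh2d3c. At Bmpr1a, a type I BMP receptor, the larger of its 2 increases was 2.36 (counting SE 0.33), beside a lower region at -2.47.

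By the deposited levels, the 5 largest changes towards lower accessibility were at Lrrc32, Smad1, Bmp6, Inhbb and Acvr2b. At Bmp6, a BMP ligand, a region 24335 bp from the gene, over a start site of Gm47990, went from 6.49 to 2.44, while another region on its other side, over a start site of Txndc5, was higher by 2.23. The dKO level was at or under the floor at Lrrc32, which holds latent TGF-β on the cell surface (the region was nearer to a start site of Gucy2d), at Inhbb, a subunit of activin B, and at Acvr2b, a type II receptor. These regions were at least 15.5-fold, 9.09-fold and 7.54-fold lower in dKO. The places of Lrrc32, Inhbb and Acvr2b rest on values at the floor. Smad1 and Bmp6, above it, were 16.7-fold and 16.6-fold lower, and a region at Bmp7, a further BMP ligand, was above it too and was 9.45-fold lower, a change of -3.24 (counting SE 0.42).

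**Figure D4:**
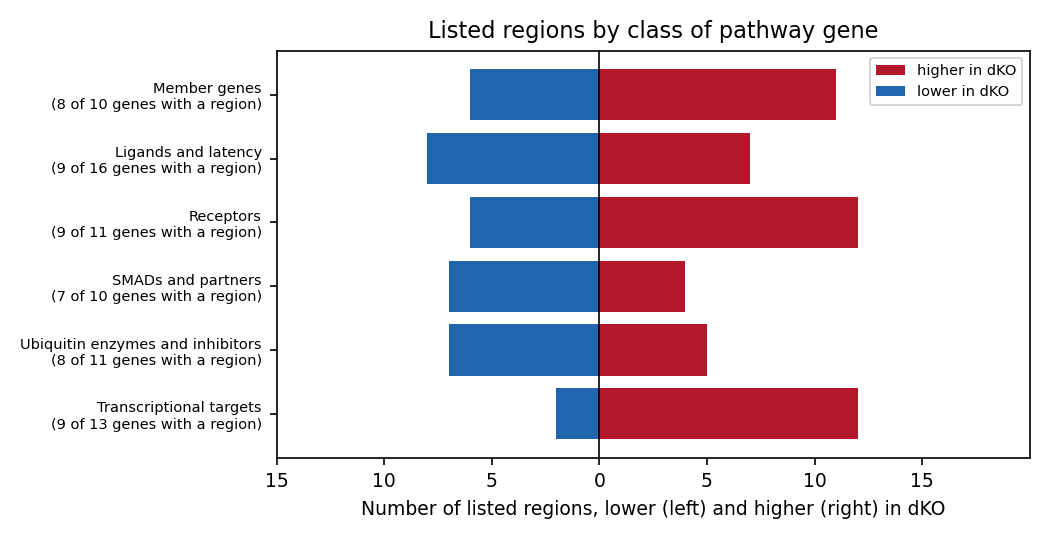
Number of listed regions higher (red, right) and lower (blue, left) in dKO at the member genes and at 5 classes of further pathway genes. The transcriptional targets have 12 higher and 2 lower regions, the SMADs and their partners 4 higher and 7 lower; after the median change of all regions is subtracted, the targets have 9 higher and 5 lower.

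Next, 10 genes used as markers of blood and myeloid cells were looked up with the same windows. Only changed regions are listed, so this lookup cannot show whether either group is the labelled cell type. Listed regions were found at 9 of the 10 genes (all but Fcgr3), 23 higher and 1 lower in dKO. Position again does not give the target. A region at Itgam lay over a start site of Itgax, and those at Elane were nearest to start sites of Med16 and Arid3a. Over the genome 47.5% of protein-coding genes had a listed region, and 60.3% of all listed regions were higher. The listed regions at Ptprc, Kit, Cd34, Itgam, Fcgr2b, Elane, Ly6c2 and Csf1r were all higher in dKO on the deposited scale. Mpo had a higher region, at 0.95, and the lower one, at -1.13. The WT level of the Kit region was at or under the floor. Of the 23 higher marker regions, 7 turned when 0.98 was subtracted. The study reported reduced CD11b (the product of Itgam) and Ly6C staining and decreased Csf1r levels in dKO cells. How these relate to accessibility was not tested. The part of the markers in the values of the members was not tested.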

How the data were processed

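ATAC-seq reads of 4 libraries (2 WT, 2 dKO) underlie the values. Per the labels and the study's methods, reads were preprocessed with PiGx, aligned to mm10 with Bowtie2, and peaks were called with MACS2 and compared with DiffBind 2.14.0. How duplicate reads, the offset of Tn5 and the merging of peaks were handled, and the depth of each library, are not given in the sources used here. The authors deposited, for each region, log2 mean normalised reads per group, and also their own log2 fold change, p-value and false discovery rate, which were used only to check that every listed region lay within the cutoff of 0.05 and that the fold equalled the difference of the means within 0.01. The 2 deposited files are named for different comparisons, WT with dKO and dKO with dKO-LAP*, but were identical; their columns name WT and dKO only, and they were read as 1 table of that comparison.

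Planned tests for counts per library were not run, because the table holds group means. Gene bodies came from GENCODE M21, extended by 50 kb, with an overlap of 1 bp sufficing; sequences came from GRCm38.p6. The lowest level, -0.15 in both groups, was taken as 1 read in each library. All 235 dKO values up to the floor of 3 reads per library (level 1.43) fell on such steps. The tolerance was 0.01 on the log2 scale plus an allowance for the rounding of the levels. All 202 WT values did so when 1 read differed 1.22-fold in worth between the libraries. These ratios (1 in dKO) were the best of those tried, over which a median of 73.2% of dKO and 36.1% of WT values fell on steps. Counting SEs followed from these reads; PCR copies are not independent molecules. Strings were searched with Python 3.11.15 and pysam 0.24.0, and the assignment of regions and the string search were tested on simulated data.

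The members, the pathway list and the marker list were chosen with earlier results of these data known. All members and their regions are named; 1 sequence that the rule for printing selects is not reported here. Full values are given for each region with the largest change of its gene and for promoters. Of the pathway list, genes with a region over a promoter and the 5 largest changes in each direction are named. Other windows (gene body, 10 kb, 100 kb), nearest start sites, level filters and centring were tried as alternatives.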

Additional observations from a re-analysis of the deposited data

How the results depend on the processing

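The count of 17 regions was 5 in gene bodies alone and 8 with 10 kb on either side; it was 25 with 100 kb. The share of higher regions, 64.7%, was 40.0% in gene bodies, where the Tgfbr1 regions drop out, 41.7% for regions whose nearest protein-coding start site was a member's, and 41.2% after the median change of all listed regions (0.98) was subtracted, which centres any such list. Without Tgfbr1, an alternative chosen after seeing the data, 6 of 12 regions were higher and the median was 0.08, whereas counting each gene once gave 62.5% of genes higher (also chosen after seeing the data) and a median of 0.90. The median change of 0.87 became -1.60 in gene bodies and -0.11 after centring, and the pathway genes with a region numbered 16 in place of 42 in gene bodies. Centring also turned the regions with the smallest increases: Tgfb1 region 2 to -0.11, Tgfbr1 region 1 to -0.01 and region 3 to -0.20, and Smurf2 to -0.13. No paired analysis was possible because values per library are missing from the means used here, and no library could be left out. The counting SE was highest, 0.43, at Smad3 region 2.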
